A study of Mus musculus with 3 samples.

Results

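The B and T cells of the mouse aorta were compared between mice whose myeloid cells carry Jak2V617F and Jak2WT mice. Cells were chosen from 1 CITE-seq run, in which the transcripts and antibody-bound surface proteins of single cells are counted as unique molecular identifiers (UMIs). A barcode was assigned to a mouse where its highest hashtag count was at least 3 times the second, and was kept where mitochondrial genes held at most 10% of UMIs, at least 1000 gene UMIs were counted, *C1qa*, *C1qb* and *C1qc* together had fewer than 10 UMIs per 10000, and *Rag1* and *Dntt* had none. B cells then had at least 5 UMIs of *Cd79a*, *Cd79b* and *Ms4a1* and none of *Cd3e*, and T cells had at least 3 UMIs of *Cd3d*, *Cd3e* and *Cd3g* and none of *Cd79a*. Of 8471 deposited barcodes, 2357 passed the common limits, 568 were B cells and 642 were T cells, 1210 lymphocytes in all, and none was both. Just inside the limits lay 12 B cells with 5 or 6 marker UMIs and 42 T cells with 3 or 4; just outside lay 4 barcodes with 3 or 4 B cell UMIs and 126 with 1 or 2 T cell UMIs.

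The run held 10 mice, 5 Jak2WT (mice 1 to 5, numbered by hashtag) and 5 Jak2V617F Myel (mice 6 to 10, Jak2V617F MyC in the labels). Jak2V617F Myel mice carry 1 conditional Jak2V617F allele and LysM-Cre (Jak2V617F WT/Flex LysMCre+/-), the controls were littermates, all were C57BL/6, and no treatment was given. An aneurysm was present in mice 7 and 9, and the aorta was dilated with no aneurysm in mice 6, 8 and 10. Blood leukocytes had been labelled in vivo with anti-CD45.2-APC and left out of the sort, and the sorted pool was balanced between the genotypes, so absolute cell numbers cannot be compared. The genotypes were stained with anti-CD45.2 in different fluorochromes, so genotype and this stain cannot be told apart. LysM-Cre is mainly active in myeloid cells, but no readout here shows which allele a given lymphocyte carried, since the transcripts were counted from their 3′ ends. *Xist*, a female-specific transcript, was high in mice 1 and 2 among the controls and mice 6 and 7 among the mutants.

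JAK2 is a tyrosine kinase that passes signals from cytokine and hematopoietic growth factor receptors to STAT transcription factors, and V617F makes it active without ligand. *Lyz2*, from whose promoter LysM-Cre is expressed, is a gene of macrophages, monocytes and neutrophils and not of lymphocytes. B and T cells reside in the adventitia of the aorta, where they sense cytokines and antigen that macrophages present. The comparison addresses whether lymphocytes differ when the mutation is placed in myeloid cells. The paper reports a myeloproliferative neoplasm in Jak2V617F Myel mice, with an enlarged spleen and more circulating red cells, neutrophils and monocytes. Effects of neighbouring myeloid cells, of the neoplasm and of the aortic disease cannot be told apart here.

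The sums rested on 13 to 140 B cells and 12 to 135 T cells a mouse, and held 70672 to 1259545 B cell UMIs and 124307 to 989731 T cell UMIs; mouse 4 was the smallest in both. The marker sums include genes that chose the cells, so they describe the choice. In B cells, the 8 B cell markers summed to 5159 to 8630 UMIs per 1000000 UMIs of the sum (CPM) and the 8 T cell markers to 12.4 to 76.1, while in T cells the T cell markers summed to 3690 to 4925 and the B cell markers to 72.4 to 144. The CD3 antibody, which the choice did not use, gave 3.68 to 11.2 counts per T cell and 0.0278 to 0.5 per B cell. B cells made up 32.0% ± 11.1 (SD, n = 5) of kept barcodes in Jak2WT and 18.9% ± 12.2 in Jak2V617F Myel mice, with the lowest share in mouse 9, 5.32% (95% exact binomial interval 3.23% to 8.19%). The shares overlapped, and their difference did not pass (exact permutation test, two-sided, p = 0.119, adjusted p = 0.238 over 2 shares; the smallest p that 5 against 5 mice allow is 0.00794). T cells made up 28.4% ± 7.16 and 24.6% ± 5.57 (exact permutation test, p = 0.389). Fewer cells of 1 type and more of the other kept cells cannot be told apart from such shares.

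RNA content was compared before the transcripts. Median UMIs per T cell were 8211 ± 531 in Jak2WT and 7405 ± 612 in Jak2V617F Myel mice, and median UMIs per B cell 5748 ± 1404 and 6062 ± 1035 (SD, n = 5). None of the 6 measures of UMIs, genes and mitochondrial share in B and T cells passed after adjustment (exact permutation tests, smallest p = 0.0635, adjusted p = 0.238, both for T cell UMIs). Macrophage marker RNA was counted in every sum, and RNA of other cells was high in single sums. The 18 macrophage markers summed to 1250 to 2589 CPM in the B cells of Jak2WT mice, to 3311 in mouse 6, 7520 in mouse 9 and 1369 to 1755 in the other mutant mice. In T cells the same list spanned 636 to 1396 CPM in Jak2WT and 903 to 1556 in mutant mice, so the groups overlapped. Hemoglobin RNA came from few barcodes, with 2110 *Hbb-bs* UMIs in 1 B cell of mouse 2 and 5023 in 1 T cell of mouse 3, and 1 T cell of mouse 9 held 1761 UMIs of *S100a8*, a neutrophil gene.

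Surface antibodies on T cells gave calls between the genotypes that depended on single mice and on settings, as given below. CD278 (ICOS), a co-stimulatory receptor of activated T cells, and JAML, an adhesion molecule by which leukocytes bind epithelium and which co-stimulates gamma-delta T cells, were the 2 of 55 antibodies tested that passed (3.64%). The CD278 antibody gave 0.278, 0.404, 0.4, 0.167 and 0.211 counts per T cell in Jak2WT mice 1 to 5 and 0.742, 1.27, 0.725, 1.10 and 0.45 in Jak2V617F Myel mice 6 to 10. Every mutant mouse lay above every control, and the aneurysm mice 7 and 9 were highest. The means were 0.292 ± 0.108 and 0.858 ± 0.328 (SD, n = 5), a log2 fold change of 1.51 ± 0.35 (SE; edgeR quasi-likelihood test, adjusted p = 0.0294). The signal was low. B cells gave at most 0.0926 CD278 counts per cell in any mouse, and the isotype controls at most 0.167 per T cell, which was also the CD278 value of control mouse 4.

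The JAML antibody gave 1.97, 3.298, 2.41, 1.42 and 3.58 counts per T cell in mice 1 to 5 and 6, 13.2, 6.13, 11.97 and 3.41 in mice 6 to 10. Only mouse 10 lay within the range of the controls. The means were 2.54 ± 0.90 and 8.14 ± 4.22 (SD, n = 5), with a log2 fold change of 1.70 ± 0.40 (SE, edgeR, adjusted p = 0.0294). B cells gave 0.636 to 2.07 JAML counts per cell, a range that holds the T cell values of control mice 1 and 4. CD44, a hyaluronan receptor that marks antigen-experienced T cells, came next with 29.1 ± 12.3 and 62.7 ± 29.7 counts per T cell and did not pass (log2 fold change 1.14 ± 0.33, edgeR, adjusted p = 0.0851). CD55, an inhibitor of complement, averaged 19.3 ± 4.6 and 10.8 ± 1.67 counts per cell (adjusted p = 0.163), and the gamma-delta T cell receptor antibody 0.568 ± 0.297 and 1.62 ± 1.27 (adjusted p = 0.181). The transcripts of the called proteins did not pass: *Icos* averaged 217 ± 93.3 and 466 ± 257 CPM (log2 fold change 0.89, adjusted p = 0.221), and *Jaml* 56.7 ± 40.5 and 71.1 ± 26.4 CPM (0.04, adjusted p = 1.00).

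**Figure D1:**
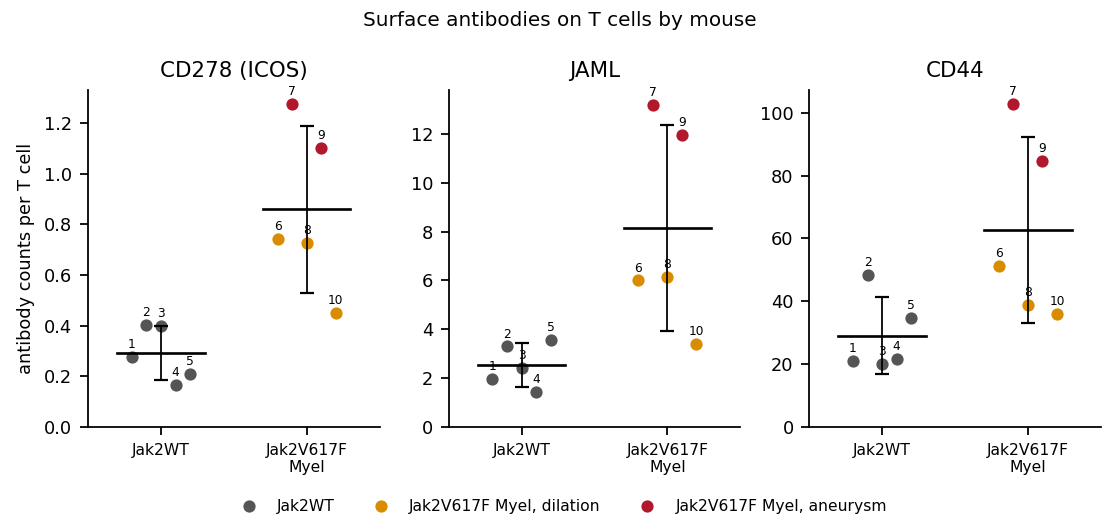
Antibody counts per T cell (vertical axes, linear) for CD278, JAML and CD44 in 5 Jak2WT and 5 Jak2V617F Myel mice. Each point is 1 mouse with its number, the horizontal line is the mean and the bar the SD. CD278 does not overlap between the groups, while mouse 10 lies among the controls for JAML, and mice 7 and 9 are highest in all 3 panels.

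Both antibody calls depended on single mice and on the settings. No antibody was called by edgeR with a Y-linked covariate (smallest adjusted p = 0.0518), with no low-count filter (0.0542), with HTODemux hashtags (0.0559) or without cells above 3 times the median UMIs (0.0585). Leaving out 1 mouse at a time gave 0 to 6 called antibodies, and neither was called in 6 of these 10 fits, without mouse 1, 3, 4, 5, 7 or 9, with log2 fold changes of 1.24 to 1.70 for CD278 and 1.37 to 1.83 for JAML. Without T cells that held a *Trdc* UMI, CD278 passed and JAML did not. Without the T cells with at least 20 macrophage UMIs per 10000, CD55 passed, as lower in the mutant mice, and neither CD278 nor JAML did.

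No T cell transcript passed. Of 4890 genes tested, 0 (0%) had an adjusted p under 0.05 by edgeR, while 585 had an unadjusted p under 0.05, 267 higher (5.46%) and 318 lower (6.5%) in the mutant mice, and DESeq2 called 40, 8 higher and 32 lower. The gene nearest to the threshold was *Itgal*, the alpha chain of the integrin LFA-1 that binds ICAM-1 on endothelium and other cells. Its CPM were 65.0, 94.95, 68.5, 72.4 and 82.8 in mice 1 to 5 and 148, 161, 141, 164 and 160 in mice 6 to 10. The groups were well apart, with the dilation and aneurysm mice within 1 narrow range. The log2 fold change was 0.83 ± 0.14 (SE, edgeR, adjusted p = 0.0902), and *Itgal* was called by DESeq2 and where sums were scaled to their total.

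The other 4 genes with the smallest p among those higher in the mutant mice also did not overlap between the groups. *Serpinb1a*, an inhibitor of neutrophil serine proteases, had 37.6, 99.4, 36.9, 16.1 and 40.4 CPM in mice 1 to 5 and 226, 224, 126, 319 and 104 in mice 6 to 10. Mouse 9 was highest and mouse 10 only just above mouse 2, and the log2 fold change was 1.83 ± 0.35 (adjusted p = 0.126). *Ikzf3*, the lymphoid transcription factor Aiolos, had 76.8 ± 33.1 against 205 ± 73.7 CPM, *Slc16a6*, a transporter of the monocarboxylate family, 47.8 ± 19.8 against 113 ± 25.1, and *Fkbp5*, an HSP90 co-chaperone induced by glucocorticoids, 27.8 ± 5.48 against 70.1 ± 17.4 (SD, n = 5; log2 fold changes 1.19, 1.08 and 1.10, adjusted p = 0.148 for each).

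Among genes lower in the mutant mice, *Ripor2*, an inhibitor of the small GTPase RhoA, had 123, 130, 154, 185 and 154 CPM in mice 1 to 5 and 92.2, 78.8, 99.7, 103 and 102 in mice 6 to 10. The groups did not overlap (log2 fold change -0.81 ± 0.15, adjusted p = 0.126). *Hsp90aa1*, an inducible chaperone, averaged 963 ± 146 and 649 ± 91.4 CPM, and *Dgka*, a diacylglycerol kinase that restrains T cell receptor signaling, 124 ± 27.7 and 70.3 ± 14.9, again without overlap (log2 fold changes -0.74 and -0.95, adjusted p = 0.148 for each). *Slamf6*, a co-receptor of T and NK cells, and *Ddx52*, an RNA helicase, had log2 fold changes of -1.003 and -0.95 with overlapping groups. As a scale for these differences, 125 higher and 31 lower genes of all 4890 did not overlap between the groups. Overlap was judged on CPM, scaled to total UMIs, while the log2 fold changes used TMM factors. These factors were 0.889 to 0.981 in the T cell sums of Jak2WT and 1.01 to 1.12 in those of mutant mice. CPM thus place mutant mice higher than the fits do, in the overlap counts too.

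**Figure D2:**
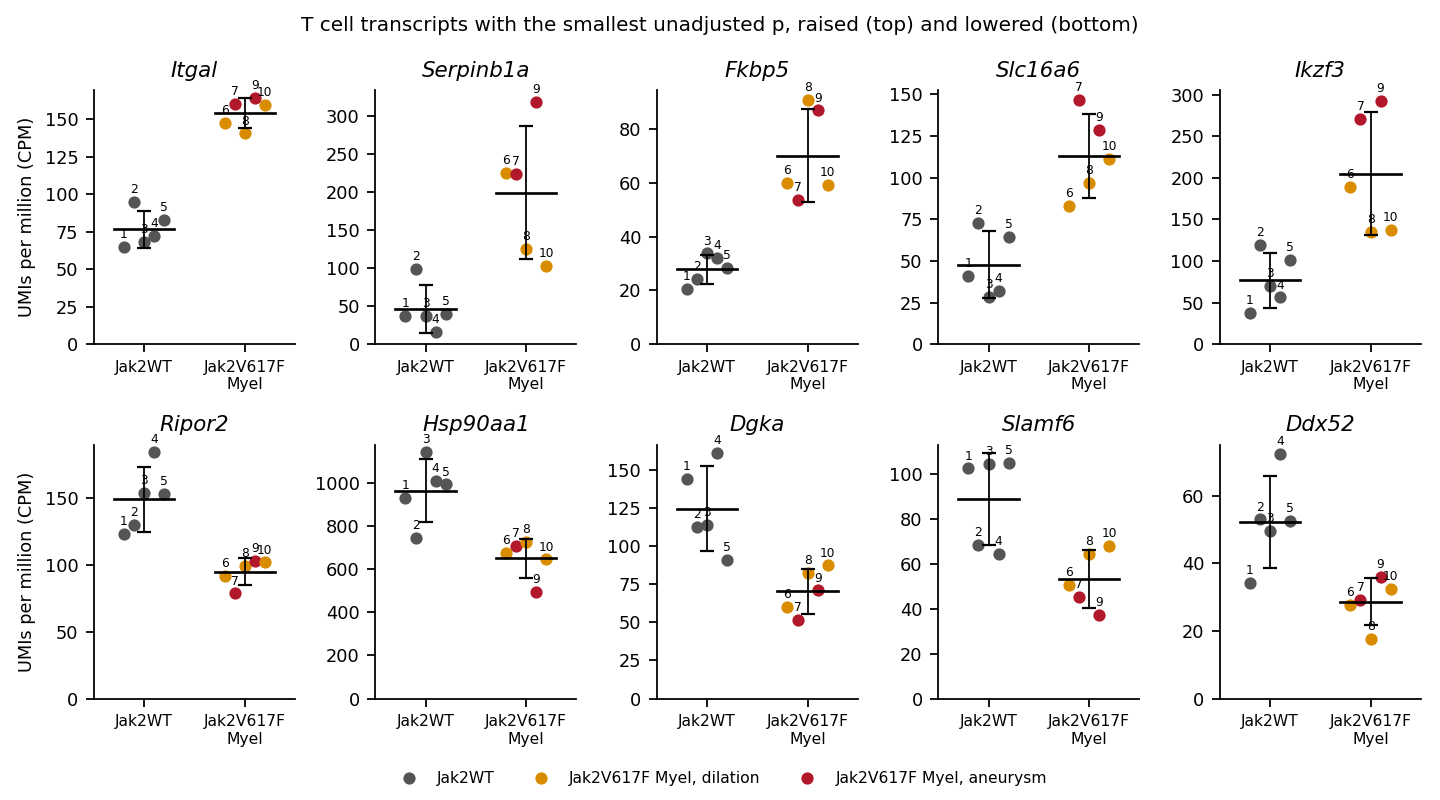
UMIs per 1000000 (CPM) in T cell sums (vertical axes, linear from 0) of the 5 genes with the smallest unadjusted p in each direction. Points are the 5 Jak2WT and 5 Jak2V617F Myel mice with their numbers, lines are means and bars SD. All 5 upper panels are free of overlap, and *Slamf6* and *Ddx52* in the lower row overlap.

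The gene lists describe the T cells by function, each set beside the 5.46% and 6.5% of all genes with an unadjusted p under 0.05 and the median log2 fold change of 0.006 over all genes. Of 22 genes for homing and retention, 5 had higher and 3 lower values at that p (median 0.17). The higher members were *Itgal*, the chemokine receptors *Cxcr6* (143 against 376 CPM) and *Ccr2* (150 against 310 CPM), *Rgs1*, which dampens chemokine signaling, and *Itgae*, the CD103 integrin chain of tissue-resident T cells. The lower ones included *S1pr1*, the receptor for exit from tissue (413 ± 78.0 against 250 ± 109 CPM), and *Cd69*, which holds T cells in tissue. Of these named genes, each overlapped between the groups except *Itgal*.

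Of 29 genes of T cell subsets, 10 had higher and 3 lower values (median -0.01). Among the 10 were 4 gamma-delta receptor constant genes, with *Tcrg-C1* at 53.3 ± 29.3 against 196 ± 137 CPM and *Trdc* at 135 ± 75.05 against 331 ± 257 CPM, and also *Icos*, *Pdcd1*, the inhibitory receptor PD-1 (41.5 ± 21.3 against 120 ± 54.9 CPM), *Maf*, *Ikzf2*, *Tnfrsf18* and *Il2ra*. *Dapl1* and *Lef1*, genes of naive T cells, and *Ly6c2* were lower. Of 22 cytokine receptors, 6 had higher values, among them the interferon-gamma receptor *Ifngr1* (436 ± 142 against 744 ± 171 CPM) and the TNF receptors *Tnfrsf1a* and *Tnfrsf1b*, and 3 had lower values, the interleukin-6 receptor chains *Il6ra* and *Il6st* and *Il17ra*. No list member passed (edgeR; DESeq2 was the other test, with 40 calls over all genes).

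The subsets in the sums also moved between mice. After thinning each T cell to 1000 UMIs, a *Trdc* UMI was found in 25.2% of T cells of mouse 7 and 25.8% of mouse 9 (95% exact binomial intervals 18.1% to 33.4% and 17.1% to 36.2%), in 2.5% to 10% in the other mutant mice and in 1.90% to 16.7% in the controls. The means of 6.73% and 14.6% overlapped (exact permutation test, p = 0.183, adjusted p = 0.304). The share with a *Cd4* and no *Cd8* UMI was 5.28% ± 1.99 in Jak2WT and 2.04% ± 2.12 in Jak2V617F Myel mice (SD, n = 5; exact permutation test, p = 0.0397, adjusted p = 0.198 over 5 shares). The shares overlapped. In B cells, which should lack all of these, after the same thinning 0 of 568 had a *Cd4* or a *Trdc* UMI, which allows a share of up to 0.528%, and 0.176% had a *Cd8a* or *Cd8b1* UMI. Before thinning, the median depth was 5789 UMIs in B and 7563 in T cells. The unthinned *Trdc* shares were 11.7% and 18.9%, and the *Cd4* shares were 20.65% and 17.6% in Jak2WT and mutant mice (exact permutation test for *Cd4*, p = 0.556). Without *Trdc* T cells, 5 subset genes were higher and 3 lower of 24 at an unadjusted p under 0.05, and no gene passed over all genes. The share of all genes at that p in this fit is not reported here.

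Ribosomal protein genes were listed after their values were seen. Of 77 ribosomal protein genes tested in T cells, 75 had an unadjusted p under 0.05 and a lower value in mutant mice, with a median log2 fold change of -0.40, and 14 did not overlap between groups, while none passed by edgeR. Of all 4890 T cell genes, 6.5% were lower at that p, and 31 lower genes did not overlap. In B cells the median of the same 77 genes was -0.05, and 0 had an unadjusted p under 0.05. Of all 3144 B cell genes, 3.63% were higher and 3.18% lower at that p. Ribosomal genes make up a large share of lymphocyte UMIs and so weigh on the scaling. With sums scaled to their total in place of TMM factors, which were 0.889 to 0.981 in the T cells of Jak2WT and 1.01 to 1.12 in those of mutant mice, the median of all genes moved to 0.21 and that of ribosomal genes to -0.22. Of the 77, 61 then had a lower value at that p. The share of all genes at that p under this scaling is not reported here.

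Mutant mice were then divided by their aortas, in a fit with 3 groups. Of 6052 T cell genes, 102 (1.69%) rose and 144 (2.38%) fell in mice with aneurysm against Jak2WT, 0 (0%) passed in mice with dilation against Jak2WT (437 with an unadjusted p under 0.05), and 8 (0.132%) were higher and 3 (0.0496%) lower in aneurysm than in dilation. DESeq2 was not run on the 3 groups, and the aneurysm group held 2 mice. Of the antibodies, 5 of 55 (9.09%) rose in aneurysm against Jak2WT, none passed in dilation against Jak2WT (8 with an unadjusted p under 0.05) and none differed between aneurysm and dilation (10 with an unadjusted p under 0.05). These were CD278, JAML, CD44, the gamma-delta T cell receptor and integrin beta 7, with log2 fold changes of 1.92, 2.28, 1.69, 2.37 and 1.63 (edgeR, adjusted p = 0.00368 to 0.0148). In dilation, CD278 and JAML had log2 fold changes of 1.11 each (adjusted p = 0.162).

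The 11 genes that differed between aneurysm and dilation were named because they passed. *Krt83*, a hair keratin gene, had 10.3, 15.5, 22.1, 16.1 and 24.2 CPM in mice 1 to 5, 36.9, 2.93 and 20.7 in dilation mice 6, 8 and 10, and 151 and 176 in aneurysm mice 7 and 9. The aneurysm mice stood far above all 8 others (aneurysm minus dilation 3.03 ± 0.38 on the log2 scale, SE; edgeR, adjusted p = 0.00409). *Cd163l1*, a scavenger receptor gene that marks interleukin-17 type gamma-delta T cells, had 27.4 to 81.7 CPM in Jak2WT, 29.3 to 91.6 in dilation and 248 and 271 in aneurysm (1.92 ± 0.36, adjusted p = 0.0406). *Bcl2a1d*, an anti-apoptotic gene whose near-identical copies can share reads, *Actn2*, *Mast4*, *Slc15a3* and *5830411N06Rik* were also higher in aneurysm, by 2.23, 1.497, 1.89, 4.43 and 3.11. *Slc15a3* and *5830411N06Rik* held 96 and 113 UMIs over all mice, with 0 to 4.61 and 2.93 to 5.91 CPM in dilation. *Mast4* had 24.1 to 44.4 CPM in Jak2WT, 9.22 to 17.7 in dilation, and 64.7 and 54.8 in aneurysm. Against Jak2WT it did not pass (aneurysm minus Jak2WT 0.60, edgeR, adjusted p = 0.213).

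Lower in aneurysm were *Klf2*, a transcription factor that maintains *S1pr1* in resting T cells, *Smc4*, a condensin subunit, and *Utp14b*. *Klf2* had 418 to 708 CPM in Jak2WT, 457 to 509 in dilation and 228 and 175 in aneurysm (aneurysm minus dilation -1.35 ± 0.25, SE; edgeR, adjusted p = 0.0406), and *Smc4* 180 to 306, 263 to 293, and 104 and 114 CPM (-1.44 ± 0.25, adjusted p = 0.0406). Both aneurysm mice lay below every other mouse for these genes. *Utp14b* held 121 UMIs over all mice, with 15.8 to 27.4 CPM in Jak2WT, 23.45 to 106 in dilation, and 3.03 and 9.35 in aneurysm. Against Jak2WT *Utp14b* did not pass (aneurysm minus Jak2WT -2.08, edgeR, adjusted p = 0.0673). *S100a9* also passed, at 3804 CPM in mouse 9 and at most 22.1 in any other mouse, which is the sum with the *S100a8* barcode named above. Without that cell, 10 genes passed, and *S100a9* was not among them.

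Against Jak2WT, where 1.69% of 6052 genes rose and 2.38% fell, the lists held these calls. Of 34 genes of T cell subsets, 9 rose (*Icos*, *Pdcd1*, *Maf*, *Il23r*, *Trdc*, *Tcrg-C1*, *Tcrg-C2*, *Tcrg-C4* and *Zbtb16*) and 2 fell (*Lef1* and *Dapl1*). Of 24 homing genes, *Cxcr6*, *Ccr2*, *Itgal* and *Cd44* rose by 1.76, 1.25, 0.83 and 1.21, and *S1pr1* fell by 1.54 on the log2 scale. Of 26 cytokine receptors, *Il1r1*, *Il18r1*, *Ifngr1* and *Tnfrsf1b* rose, and *Il6ra* and *Il6st* fell. Of 15 heat-shock genes, *Dnajb1*, *Hsp90aa1*, *Hspe1* and *Hspd1* fell and *Hsp90b1*, a chaperone of the endoplasmic reticulum, rose. Ribosomal protein genes made up 71 of the 144 genes that fell, of 77 tested (median -0.63). This comparison shares its Jak2WT mice and mice 7 and 9 with the comparison of genotypes, which had no call.

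**Figure D3:**
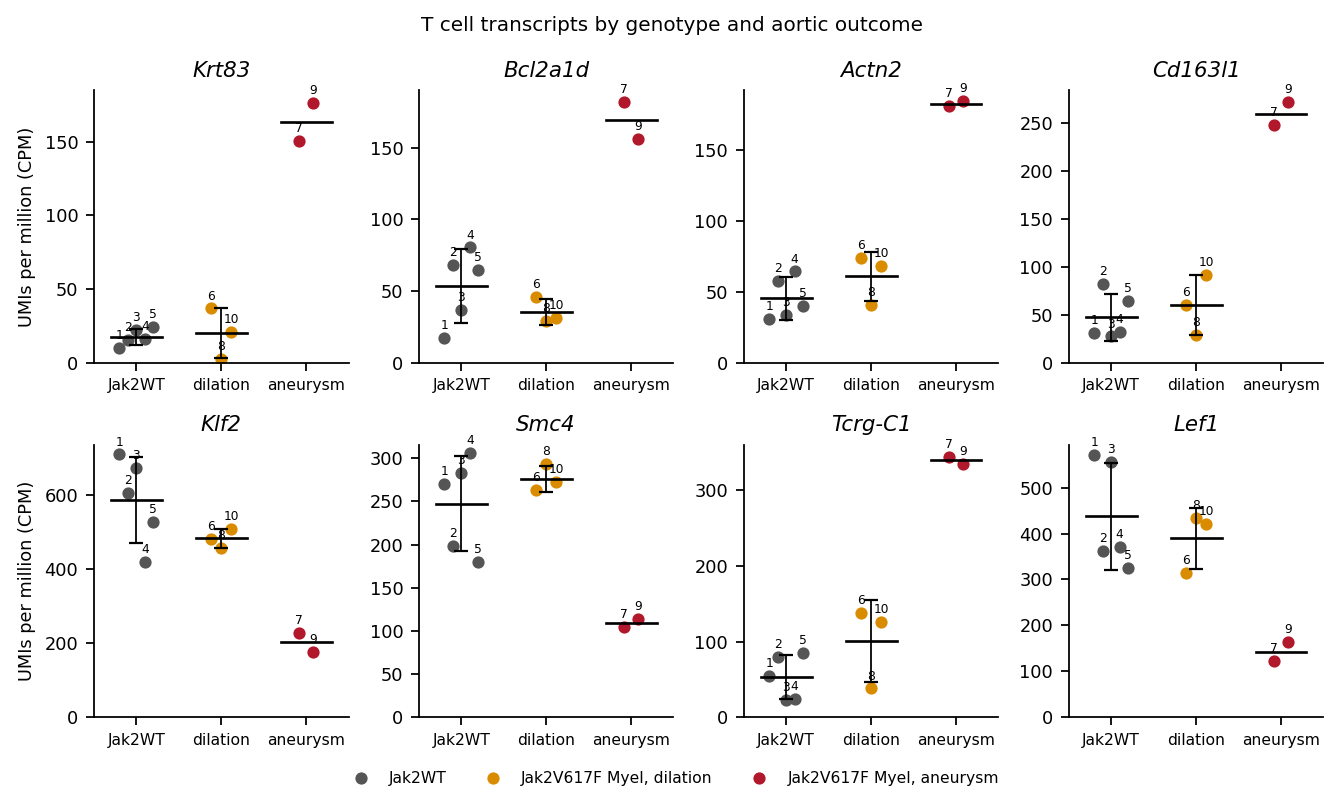
UMIs per 1000000 (CPM) in T cell sums (vertical axes, linear from 0) for 6 genes called between aneurysm and dilation and for *Tcrg-C1* and *Lef1*, in 5 Jak2WT mice, 3 Jak2V617F Myel mice with dilation and 2 with aneurysm. Points carry mouse numbers, lines are means, and bars are SD for groups of 3 or more. Mice 7 and 9 stand apart from the other 8 mice in each panel.

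These counts moved with single mice. Without mouse 7 or mouse 9, the aneurysm group held 1 mouse and thus no replicate. Most of the 246 genes called above against Jak2WT were then lost, while ribosomal protein genes had medians of -0.58 and -0.64. Against dilation, leaving out 1 mouse with both aneurysm mice kept gave 0 (without mouse 10) to 20 called genes (without mouse 5). The count was 1 without mouse 6, 2 without mouse 8, 7 without mouse 4 and 19 without mouse 1. *Krt83* was called in each of these fits but that without mouse 10. Without *Trdc* T cells, 26 rose and 86 fell against Jak2WT, 107 of them among the 246, and none differed between aneurysm and dilation (smallest adjusted p = 0.0513). With sums scaled to their total, 309 rose and 98 fell against Jak2WT.

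B cells gave no call. Of 3144 genes, 0 (0%) passed by edgeR, 214 had an unadjusted p under 0.05, 114 higher (3.63%) and 100 lower (3.18%) in the mutant mice, and DESeq2 called 1, *Klf4*. None of 45 antibodies passed (0%), with 2 at an unadjusted p under 0.05 and 0 by DESeq2. *Klf4*, a transcription factor that slows B cell proliferation, had 109, 52.3, 59.2, 127 and 78.6 CPM in mice 1 to 5 and 306, 112, 231, 243 and 150 in mice 6 to 10. Mouse 7 lay within the control range and the other mutant mice above it (log2 fold change 1.36 ± 0.28, SE; edgeR, adjusted p = 0.289). *Sertad1*, a cell cycle regulator, averaged 24.6 ± 13.3 and 64.5 ± 21.4 CPM, and *Tent5a*, a poly(A) polymerase gene, 35.1 ± 28.1 and 64.9 ± 19.8 (log2 fold changes 1.43 and 1.21, adjusted p = 0.289 for both).

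The other genes with the smallest p on the higher side were *Retnla* and *Ccl6*, which macrophages express. *Retnla* had 30.4, 90.4, 63.0, 42.5 and 40.5 CPM in mice 1 to 5 and 869, 73.6, 59.8, 662 and 253 in mice 6 to 10, and *Ccl6* had 21.7 to 56.6 CPM in the controls and 464, 38.6, 68.4, 838 and 88.5 in mice 6 to 10. Mice 6 and 9, whose B cell sums were highest for the 18 macrophage markers together, were also highest for both. The markers did not move as 1 in mouse 6. There *Lyz2*, *Fcer1g* and *Tyrobp* had 1399, 298 and 364 CPM, while *Pf4* and *Lyve1* lay below every control. Of the 7 dendritic cell markers, only *Itgax* was above the controls in mouse 6, with 86.9 CPM against 0 in all controls. There *Flt3*, *Xcr1*, *Clec9a*, *Siglech* and *Ccr9* had 0 CPM, and *Cd209a* had 8.28 against 0 to 14.15 in the controls. *C1qa*, *C1qb* and *C1qc* are also among the 18 markers, but the choice of cells capped them. *Lyz2*, 1 of the 18 markers, had 139 to 311 CPM in the controls, 1001 in mouse 9 and 168 to 209 in mice 7, 8 and 10 (log2 fold change 1.55, adjusted p = 0.473). Without B cells above 3 times the median UMIs, its log2 fold change was -0.288. Such cells were 1 of 28 in mouse 6 and 3 of 19 in mouse 9, and also occurred in mice 1, 5 and 10. Which cells held the RNA of the other genes is not reported here. Without B cells with at least 20 macrophage UMIs per 10000, a fit that drops mice 4 and 9 for too few cells, 0 genes passed.

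On the lower side, *Itpr1*, a calcium channel of the endoplasmic reticulum, had 109, 90.4, 103, 84.9 and 94.5 CPM in mice 1 to 5 and 66.2, 59.6, 62.7, 48.6 and 62.6 in mice 6 to 10. The groups did not overlap (log2 fold change -0.68 ± 0.17, SE; edgeR, adjusted p = 0.289). *Cd83*, an activation marker that stabilizes MHC class II at the surface, averaged 771 ± 25.9 and 549 ± 77.6 CPM, and *Gm31243*, annotated as an antisense gene, whose reads can belong to its partner, 230 ± 32.4 and 135 ± 32.0, again without overlap (-0.50 and -0.73). *Stap1*, an adaptor in B cell receptor signaling, and *Hist1h1c*, a linker histone, had -0.63 and -1.26 with overlapping groups. Over all B cell genes, 18 higher and 19 lower did not overlap.

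**Figure D4:**
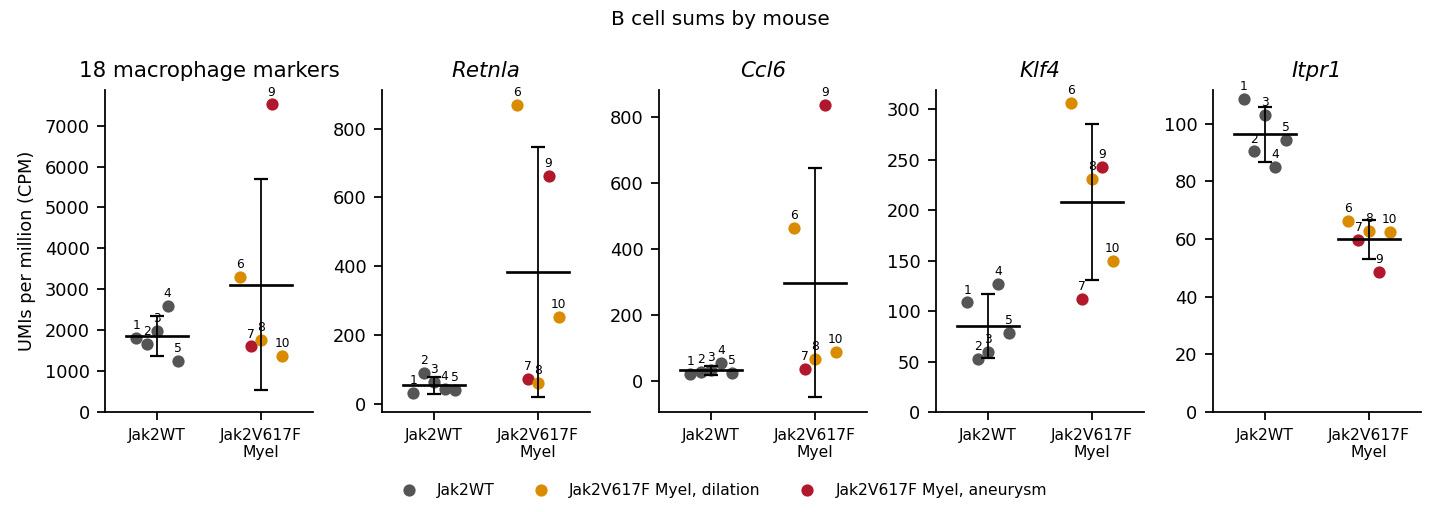
UMIs per 1000000 (CPM) in B cell sums (vertical axes, linear) of the 18 macrophage markers together and of *Retnla*, *Ccl6*, *Klf4* and *Itpr1*, in 5 Jak2WT and 5 Jak2V617F Myel mice. Points carry mouse numbers, lines are means and bars SD. Mice 6 and 9 are highest in the first 3 panels, and *Itpr1* does not overlap between the groups.

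Among the B cell lists, set beside 3.63% higher and 3.18% lower of all genes and a median of 0.002, immediate-early genes had 9 higher and 2 lower of 30 at an unadjusted p under 0.05 (median 0.34). The higher members included *Fos* (399 against 694 CPM), *Fosb*, *Csrnp1*, *Gadd45b* and *Jund*, and the lower were *Myc* (180 ± 107 against 75.3 ± 29.8 CPM) and *Nr4a1*. Such genes respond within minutes to signals and also to tissue digestion. Without the cells rich in macrophage RNA, 2 were higher and 4 lower of 29 (median 0.06), and without mice 6 and 9 the median was 0.12. The share of all genes at that p in the fit without these cells is not reported here. Of 32 genes of B cell receptor and identity, 5 were lower and none higher (median -0.15), namely *Cd22* (183 ± 24.7 against 123 ± 35.8 CPM), *Pax5*, *Ebf1*, *Bank1* and *Ighd*. *Cd22* and *Pax5* were lowest in mice 6 and 9, whose sums held most macrophage RNA. *Ebf1* was lowest in mouse 6 and *Ighd* in mouse 10. This list without the cells rich in macrophage RNA is not reported here. Of 18 homing genes, *Gpr183*, *S1pr1* and *Ccr7*, which guide B cells in lymphoid tissue, were lower and none was higher (median -0.13). No member of these lists passed. Between aneurysm and dilation, 0 of 4207 B cell genes passed (0%; 177 with an unadjusted p under 0.05).

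Heat-shock genes, which encode chaperones, had mostly positive log2 fold changes in B cells and mostly negative ones in T cells. In B cells 13 of 15 had a positive log2 fold change and 6 were higher at an unadjusted p under 0.05 (median 0.46), and in T cells 13 of 15 had a negative one, with 7 lower and 1 higher (median -0.40). The sign was shared by 4 of 15, positive for *Hspa5* and *Hsp90b1* and negative for *Dnajb4* and *Hspa9*. *Hsp90aa1* averaged 641 ± 171 and 888 ± 341 CPM in B cells and 963 ± 146 and 649 ± 91.4 in T cells of Jak2WT and mutant mice, and *Dnajb1* 45.9 ± 15.8 and 71.0 ± 27.3 in B cells and 184 ± 44.6 and 116 ± 30.1 in T cells (SD, n = 5). No list member passed in either cell type. Of all genes, 3.63% were higher in B cells and 6.5% lower in T cells at that p. Without cells rich in macrophage RNA, 1 of 15 was higher in B cells (median 0.23) and 8 were lower in T cells (median -0.50). The share of all genes at that p in the fits without these cells is not reported here. In T cells with a *Cd4* and no *Cd8* UMI, which left 3 mice of each genotype, the median of 13 genes was 0.01.

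The difference of the genotype effect between the cell types was tested in 1 model over both, with a term for each mouse. Of 5924 genes, 0 (0%) passed by edgeR (smallest adjusted p = 0.178), 408 had an unadjusted p under 0.05, and DESeq2 called 0. *Dnajb1*, *Hsp90aa1* and *Hspa8* were among the 6 genes with the smallest p for a lower genotype log2 fold change in T than in B cells. Their differences of the log2 fold changes were -1.48 ± 0.28, -1.15 ± 0.23 and -0.81 ± 0.19 (SE, edgeR, adjusted p = 0.178 to 0.245). *Irf1*, an interferon-induced transcription factor, had 21.3 ± 5.66 and 46.6 ± 30.7 CPM in B cells and 105 ± 29.7 and 60.5 ± 11.9 in T cells. *Mgl2* and *Cd209a*, genes of dendritic cells and macrophages, were also among the 6, and their B cell values were highest in mouse 6 for *Mgl2* (352 CPM) and in mouse 9 for *Cd209a* (437 CPM). *Serpinb1a*, *Slc16a6* and *Ikzf3* were among the 6 genes with the smallest p for a higher genotype log2 fold change in T than in B cells. Their log2 fold changes were -0.04, -0.74 and -0.49 in B cells against 1.83, 1.08 and 1.19 in T cells.

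**Figure D5:**
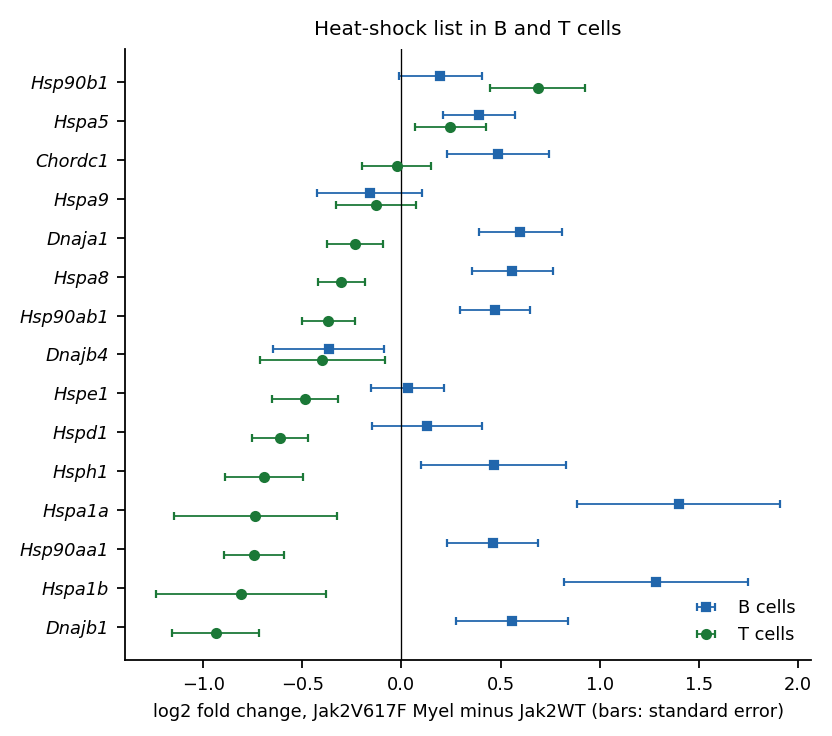
Log2 fold change between Jak2V617F Myel and Jak2WT mice (horizontal axis) for the 15 genes of the heat-shock list tested in both cell types. Squares are B cells, circles are T cells, and bars are standard errors. Most squares lie right of 0 and most circles left of it, and no gene passed in either cell type.

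*Jak2* itself was counted at 91.2 ± 42.5 and 107 ± 17.6 CPM in B cells and at 47.8 ± 19.5 and 64.9 ± 11.96 CPM in T cells (SD, n = 5; log2 fold changes 0.09 ± 0.26 and 0.17 ± 0.25, SE; edgeR, adjusted p = 0.999 and 0.873). *Lyz2* in T cells had 194 ± 62.8 and 180 ± 91.6 CPM. Of 10 JAK-STAT genes tested in B cells, *Socs3*, a feedback inhibitor, was higher at an unadjusted p under 0.05 (31.0 ± 23.1 against 100 ± 59.3 CPM), and of 18 in T cells, *Socs2* was (33.3 ± 27.1 against 80.1 ± 19.9 CPM). Neither passed (adjusted p = 0.581 and 0.290), and each overlapped between the groups. Of all genes, 3.63% in B cells and 5.46% in T cells were higher at that p. The 1 of 18 in T cells thus lay near the share of all genes. Interferon-stimulated genes had 0 of 9 at that p in B cells and 1 higher, *Ly6e*, and 3 lower of 21 in T cells, with medians of -0.05 and -0.27. Of all genes, 3.18% in B cells and 6.5% in T cells were lower at that p.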

How the data were processed

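CD45+ cells of the aortas of 10 mice were pooled in 1 CITE-seq run with transcript, antibody and hashtag libraries. The authors made the deposited counts (UMIs per gene, antibody and barcode, not normalized) with Cell Ranger on mm10, per the labels, which also name Seurat 3.0.0. The labels give no Cell Ranger version, and 6.0.2 was read from the header of the deposited matrix. Here hashtags were called again by ratio, B and T cells were chosen by their UMIs and summed per mouse (at least 10 cells), and 5 mice were compared with 5, hashtags standing for separate animals. Doublets were treated only through the hashtag ratio and the marker limits. CPM are UMIs per 1000000 UMIs of a sum, without TMM factors, and overlap between groups was judged on CPM. Main tests used edgeR 4.0.16 (R 4.3.3; filterByExpr, TMM, quasi-likelihood F test, Benjamini-Hochberg over all genes, threshold 0.05), with SE taken from the log2 fold change and F; DESeq2 1.42.0 was an alternative. Antibodies needed 10 counts in 5 mice. The 11 genes of the selection rule were not tested. Pipelines were tested on simulated data.

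Named genes were *Jak2*, *Lyz2*, all called genes, the 5 smallest p in each direction where fewer than 10 were called (6 for the B and T difference), and list members that were called or had the smallest p; the other list members named were chosen after their values were seen. The members and lists were chosen with earlier results of these data known. Exact permutation tests were two-sided. Intervals cover counting error only. Alternatives covered filters, scaling, cell selection, HTODemux hashtags (Seurat 5.3.0) and left-out mice. Some items are not reported here.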

Additional observations from a re-analysis of the deposited data

Results flagged for a closer look

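Among 5 mice of a genotype, a mouse stood out where its gap to the nearest other mouse, as a share of the group's range, exceeded 0.71, which chance gives in about 1 in 20 groups. The rule was applied in both genotypes to every named gene and to the other measures below. Several mice would therefore stand out by chance alone. In B cells this share was 0.74 for *Sertad1* (mouse 1), 0.891 for *Tent5a* (mouse 4), 0.858 for *Cd83* (mouse 9) and 0.918 for *H2-Ob* (mouse 8), each highest in its group. In T cells it was 0.734 for *Lyz2* (mouse 7), 0.729 for *Jun* (mouse 6), 0.739 for *Xcl1* (mouse 5), and 0.896 and 0.797 for *Rrm1* (mice 4 and 10).

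Antibodies on B cells stood out in mouse 4, whose sum holds 13 cells, with 0.896 for CD11c, 0.785 for CD163 and 0.851 for CD226, and in mouse 9 with 0.742 for CD11c. RNA of other cells stood out in B cells for erythrocyte markers (0.788 in mouse 2 and 0.93 in mouse 10), dendritic cell markers (0.826 in mouse 9) and, as the lowest value, neutrophil markers (0.902 in mouse 10). In T cells it did for neutrophil markers (0.996 in mouse 9) and erythrocyte markers (0.995 in mouse 3 and 0.786 in mouse 6). Mouse 5 had the highest median UMIs (0.818) and genes (0.79) per B cell among controls.

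The mutant mice with aneurysm differed from those with dilation in 11 T cell genes by edgeR. The log2 differences were 3.03 for *Krt83*, 2.23 for *Bcl2a1d*, 1.497 for *Actn2*, 1.89 for *Mast4*, 1.92 for *Cd163l1*, 3.11 for *5830411N06Rik*, 4.43 for *Slc15a3*, 7.14 for *S100a9*, -3.24 for *Utp14b*, -1.44 for *Smc4* and -1.35 for *Klf2*. *S100a9* came from 1 cell of mouse 9.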

How the results depend on the processing

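The number of called genes moved with the test and the filter. B cell genes gave 1 call by DESeq2 and 101 with no low-count filter. T cell genes gave 40 by DESeq2, 85 with no filter, 52 in cells thinned to 1000 UMIs, 212 with aneurysm mice alone, and 1 each with total scaling and in *Cd8* T cells. T cell antibodies gave 5 by DESeq2 and with aneurysm mice alone, 1 without *Trdc* cells (CD278) and 1 without cells rich in macrophage RNA (CD55), and 0 with no filter, HTODemux hashtags, deep cells left out, dilation mice alone, a Y-linked covariate, and *Cd4* or *Cd8* T cells alone. The difference between B and T cells gave 80 with no filter and 1 in thinned cells. Aneurysm against dilation gave 71 B cell genes with no filter, and 267 T cell genes with no filter, 2 with HTODemux, 6 thinned and 0 without *Trdc* cells. Aneurysm against Jak2WT gave 507 T cell genes with no filter, 162 thinned, 407 with total scaling and 112 without *Trdc* cells. The causes were not tested.

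Signs turned for *Jak2* in B cells (-0.168 with *C1q* genes under 2 per 10000, -0.202 with aneurysm mice alone) and T cells (-0.0862 with aneurysm mice alone), for *Lyz2* in B cells (-0.288 without deep cells, -0.157 without cells rich in macrophage RNA) and T cells (0.125 with aneurysm mice alone, 0.255 in *Cd4* T cells), for JAML in *Cd4* T cells (-0.282) and for the B cell mitochondrial share (-0.0273 with HTODemux). The list that marks cells rich in macrophage RNA holds *Lyz2*, so leaving them out lowers it by construction. The *Cd4* share differed by -3.05 percentage points without thinning and no longer passed unadjusted (exact permutation test, p = 0.556, from 0.0397).

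Leaving out 1 mouse gave 0 to 2 B cell genes, 0 to 11 T cell genes, 0 to 6 T cell antibodies and 0 to 45 genes for the B and T difference. It gave 0 to 49 B cell and 0 to 20 T cell genes for aneurysm against dilation, and 5 to 366 T cell genes against Jak2WT. The aneurysm ranges include the fits without mouse 7 or mouse 9, which left 1 aneurysm mouse and no replicate. *Jak2* in B cells spanned -0.0199 to 0.542. Differences spanned -128.2 to 933.9 for median B cell UMIs, 43.4 to 237 for B cell genes, -0.0646 to 0.122 for the B cell mitochondrial percent, -1026 to -625.1 for T cell UMIs, -1.15 to 85.6 for T cell genes, -0.305 to -0.177 for the T cell mitochondrial percent and -3.98 to -2.47 for the *Cd4* share.

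No paired analysis was possible between genotypes because each mouse belongs to 1 genotype and their numbers are not shared. The B and T difference used the mouse as a block, and with no replicate block it also gave 0 calls. Sums of 12 to 140 cells limit what could be detected, and mouse 4 is thinnest.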
